A study of Mus musculus with 6 samples.

Results

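The genes of the cytosolic ribosomal proteins were compared between activated cytotoxic T cells that carried a mutant of the deacetylase HDAC7 and cells from the same infected cultures that did not. Members were taken by gene symbol from the annotation of the mouse array: symbols that start with Rpl or Rps and a digit, plus those of the stalk and Rpsa, without S6 kinase genes, Rps19bp1 and pseudogenes. Only probe sets listing a single symbol were used, and each gene was read from 1 probe set, its brightest on average across all 6 samples. This gave 49 genes of 18193 on the array, 26 of the large and 23 of the small ribosomal subunit. A further 31 ribosomal protein symbols occur only on probe sets that list several genes and were not analysed here. Such probe sets also exist for 15 of the 49 members and were not read.

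Spleen cells of C57Bl/6 mice with the P14 TCR received gp33 peptide as a stimulus for 24 h before infection, and the retrovirus encoded a GFP-tagged HDAC7 phosphorylation deficient mutant. They were sorted into 3 GFP negative samples, labelled as control, and 3 GFP positive samples, which carry the mutant. Both groups therefore share the transgenic T cell receptor, the peptide activation and the exposure to virus, and no group with an empty vector is part of this comparison. Labels speak of biological replicas but name neither mice nor cultures, and a p-value here reflects how far these samples scatter, which may be technical. HDAC7 is a class IIa histone deacetylase, and its phosphorylation leads to its export from the nucleus. An Hdac7 probe set read 4.81 to 4.86 in GFP negative and 8.09 to 8.18 in GFP positive samples, while a second one changed by -0.55.

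Ribosomal proteins of the cytosol assemble with ribosomal RNA in the nucleolus into a large subunit, which forms peptide bonds, and a small subunit, which reads the messenger RNA. Their mRNAs are among the most abundant of a cell and typically begin with a C followed by a run of pyrimidines, the 5′ terminal oligopyrimidine (TOP) tract, through which their translation follows mTOR activity. T cell activation raises ribosome production, driven in part by MYC. Several members have a paralog, a second gene for a near copy of the protein, which may take its place in the ribosome or work elsewhere.

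The 30 bases around the most upstream annotated start are shown for the 8 members that passed as lower in GFP positive cells. These are 17.0% of the members tested, near the 17.5% of all genes tested that were lower. Each window runs from 10 bases before the start to 20 bases from it, 5′ to 3′, in RefSeq's GRCm38.p6. Capitals mark the longest unbroken run of C and T.
Rps27l (chr9:66946076-66946105, plus strand): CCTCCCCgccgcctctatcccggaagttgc
Rpl22l1 (chr3:28805498-28805527, plus strand): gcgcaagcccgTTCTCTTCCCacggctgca
Rpl7l1 (chr17:46782637-46782666, minus strand): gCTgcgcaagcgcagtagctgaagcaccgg
Rpl12 (chr2:32961702-32961731, plus strand): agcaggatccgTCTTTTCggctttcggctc
Rps25 (chr9:44407704-44407733, plus strand): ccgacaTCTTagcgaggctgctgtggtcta
Rpl14 (chr9:120571507-120571536, plus strand): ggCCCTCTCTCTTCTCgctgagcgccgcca
Rpl35 (chr2:39005112-39005141, minus strand): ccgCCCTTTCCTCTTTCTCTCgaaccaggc
Rpl41 (chr10:128549149-128549178, minus strand): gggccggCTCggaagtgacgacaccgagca

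For comparison, the same window is given for the paralog partners Rps27 and Rpl22, the stalk gene Rplp2 and Rps6, none of which passed the test.
Rps27 (chr3:90213629-90213658, minus strand): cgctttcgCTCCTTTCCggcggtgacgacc
Rpl22 (chr4:152324426-152324455, plus strand): CTTCTggaatgttccagctcccactgacag
Rplp2 (chr7:141447641-141447670, plus strand): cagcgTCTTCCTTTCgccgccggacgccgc
Rps6 (chr4:86857348-86857377, minus strand): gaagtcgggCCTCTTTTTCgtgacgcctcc

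The lower genes did not share one kind of start. Rpl35 and Rpl14 had runs of 18 and 14 pyrimidines and Rpl22l1 one of 10, whereas Rpl7l1, Rpl41 and Rps25 had none longer than 4 in the window. Rplp2 and Rps6, which did not pass, each had a run of 10. Over all 43 members with an entry in the RefSeq table, 53.5% had a run of at least 8 C or T bases within 25 bases of a listed start, against 22.3% of 27025 genes in the table. The 8-base motif CCGGAAGT, searched on both strands from 250 bases before to 50 after each start, occurred in 23.3% of members and 4.31% of all genes. The E-box CACGTG, whose reverse complement is the same letters, occurred in 9.3% of members and 8.09% of all genes. By the same searches, 5 of the 8 lower genes had the run (62.5%), 4 had CCGGAAGT (50%) and 1 had CACGTG (12.5%). Whether they differ from the other members was not tested. These matches describe the letters near the start and not binding or use.

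Of the 49 members, 47 lay above a log2 signal of 1.27, under which genes were left out. This is the 40th percentile of the means of all probe sets except controls. By limma with Benjamini-Hochberg adjustment over all 13194 genes tested, 8 of the 47 fell in GFP positive cells, 0 rose and 39 did not pass the threshold of 0.05. Across the array 17.5% of genes fell and 24.6% rose, so the 17.0% of members that fell lie near this background, while the number that rose lies below it. Most members are bright, however. With genes under the 90th percentile of the probe set means left out, 7 of 40 members fell and 0 rose. The shares of the genes tested there were 28.4% lower and 35.5% higher. The median change over the members was -0.076 on the log2 scale, beside -0.025 over all genes tested, and 35 of 47 changes were negative (74.5%, against 52.8% of all genes tested). The 3 GFP positive samples lay wholly below the 3 GFP negative ones for 23 members (48.9%, against 24.2% of all genes tested) and wholly above for 6 (12.8%, against 29.7%). The size of the median change depended on how arrays were scaled, and its sign changed under cyclic loess. Centring each array on its median gave a member median of -0.0072 beside 0.044 for all genes tested. It moves all genes of an array alike, so the gap between these medians stayed as it was. Cyclic loess, which scales by signal level, gave 0.011 beside -0.022. Without adjustment, limma's p was under 0.05 for 0 members with a positive change and for 9 with a negative one. No share of all genes at that unadjusted p is set beside these counts, so they cannot be read against a background. Other settings were read against their own backgrounds. Quantile normalization gave 8 lower members (background 21% lower and 20.1% higher), median centring 6 (12.4% and 28%) and the replicate number as a block 8 (18.8% and 25.5%), each with 0 higher. Cyclic loess gave 6 lower and 1 higher, Rpl19 (18.4% and 21.7%), and 32 added to each value in linear units gave 15 lower and 3 higher (14.6% and 24.8%). The mean of a gene's probe sets gave 12 lower and 0 higher (17.7% and 22.4%). Without probe sets of the kinds that may match several transcripts, 7 of 24 members were lower and 0 higher (16.4% and 23.5%). Some of these, such as Rpl41, Rps18 and Rps20, were then read from dimmer probe sets. GFP positive replicate 3 stood below its group's mean for 35 of 47 members, against 14 for each of the other two. Fewer cells of a type and less RNA per cell cannot be told apart in such bulk samples.

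**Figure D1:**
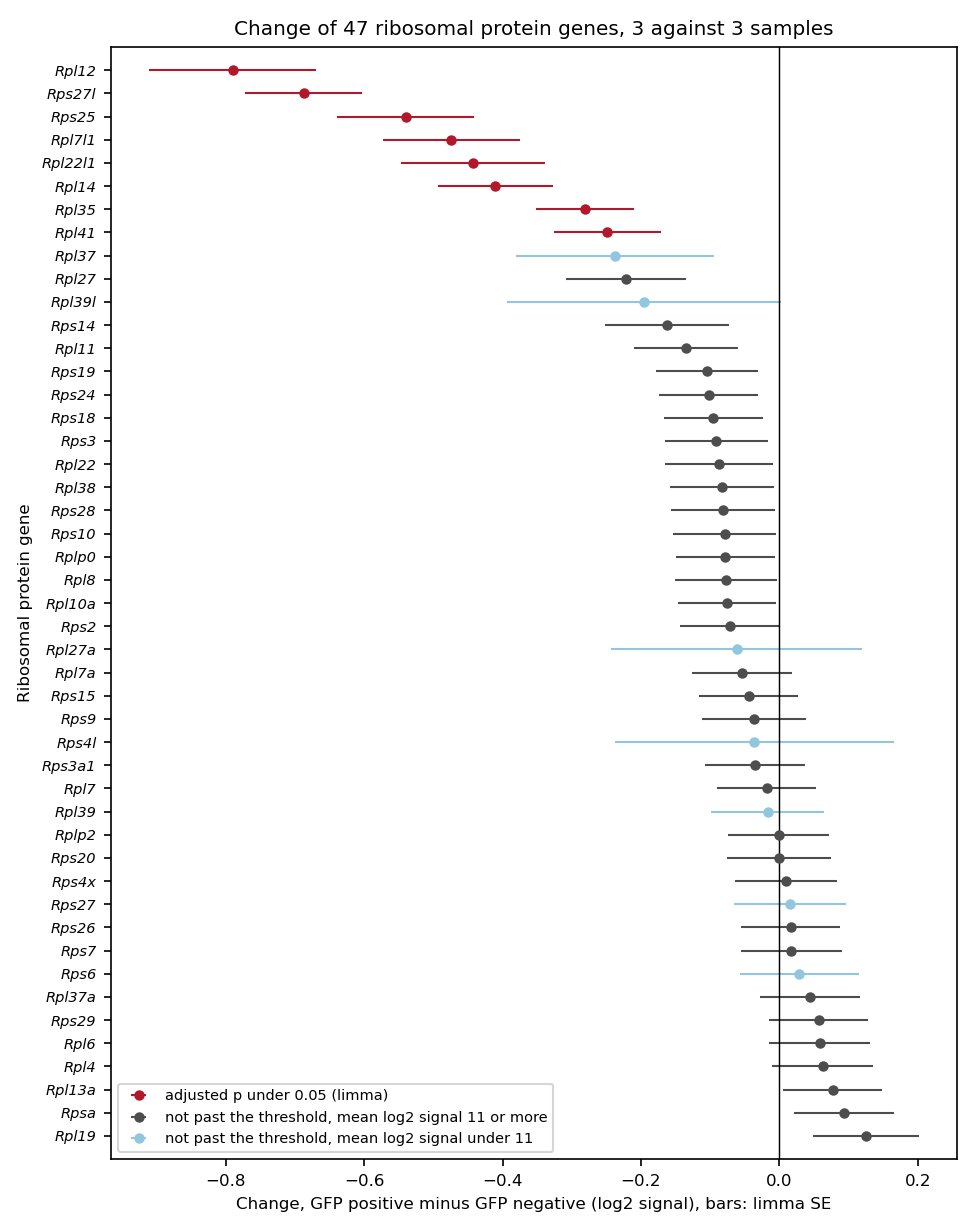
Change of each of the 47 tested members (x axis, GFP positive minus GFP negative, log2 signal) with limma's SE as bars, ordered by size (y axis, gene). Red points mark the 8 members that passed, all to the left of 0, from -0.79 for Rpl12 to -0.25 for Rpl41; the highest point is Rpl19 at 0.125.

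Members were also read by signal level. Of them, 34 had a mean log2 signal of 11 or more, a range that held only 91 of all genes tested, so 37.4% of the brightest genes were members. Among these 34, 2 fell (5.88%, against 15.4% of the 91 bright genes), 0 rose (against 14.3%) and 32 did not pass. The 91 genes include the 34 members themselves, which draws that background toward them. Changes among the 34 ran from -0.28 to 0.125, and 29 of them were under 0.13 in size. The highest signal of any probe set on an array was 13.13 to 13.29, and the brightest member, Rplp2, averaged 12.74, so that many members lie near the top of the range of the arrays. Whether signals there are compressed was not tested. Among the 13 tested members under 11, 6 fell (46.2%, against 17.5% of all genes tested, which here means genes of every level), with a median change of -0.24. Of these 13, the 8 that are not paralogs had 3 lower (37.5%), with a median change of -0.15. The paralogs among them, with 3 of 5 lower, are the same genes that are counted again below. Bright members also varied little between replicates, with a median SD within groups of 0.031, against 0.045 for all genes at 11 or more and 0.126 for all genes tested. Limma moves each spread toward a common value, which left the median SE of these 34 changes at 0.073. With a robust prior that follows intensity instead, which changes both robustness and trend together, 13 members fell and 2 rose, Rpl19 and Rpsa, against 17.7% and 25.8% of all genes. Adding the replicate block to that prior gave the same counts, against 20% and 28.6%.

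**Figure D2:**
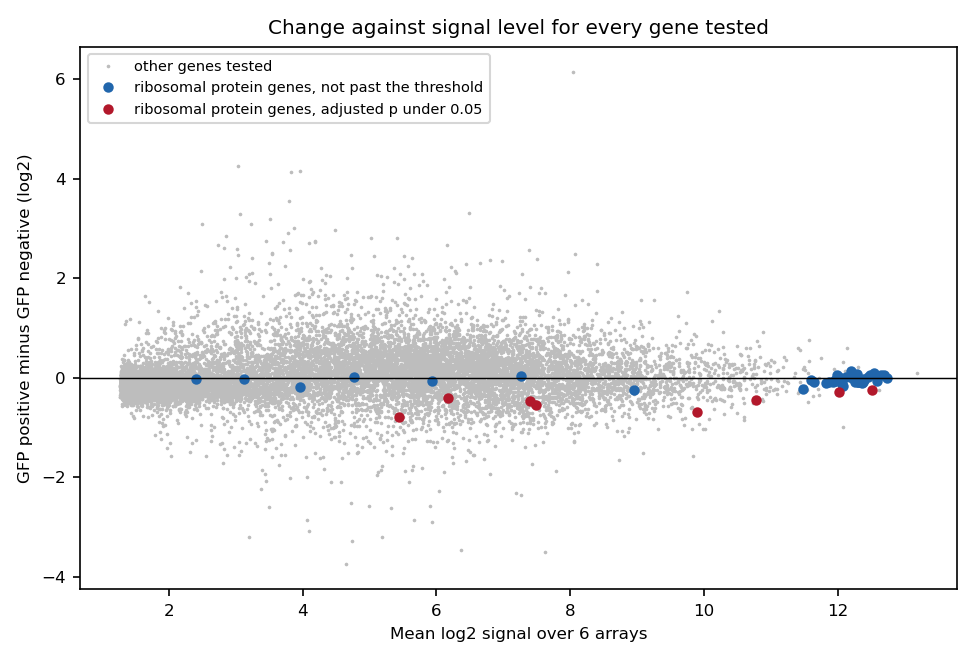
Change (y axis, GFP positive minus GFP negative, log2) against mean log2 signal over the 6 arrays (x axis) for every gene tested. Members not past the threshold (blue) crowd near 0 between 11.5 and 12.7 at the bright end, where few other genes (grey) lie; 6 of the 8 that fell (red) lie below 11.

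Of 6 paralog genes only 5 were tested, of which 3 fell (60%, against 17.5% of all genes tested) and 2 did not pass. The other, Rpl3l, a gene known from heart and skeletal muscle, was too dim to test, with samples from 0.73 to 1.13. Rps27l, the paralog of Rps27 and a known target of p53, read 10.12, 10.30 and 10.29 in GFP negative samples and 9.57, 9.58 and 9.49 in GFP positive ones. Every GFP positive sample lay below every GFP negative one. The means were 10.23 ± 0.10 and 9.55 ± 0.05 (SD, n = 3 each), a change of -0.69 ± 0.084 (SE), or 1.61-fold lower, with a limma adjusted p of 5.1e-04. All 3 of its probe sets fell, by 0.69 to 0.76.

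Rpl22l1, the paralog of Rpl22, read 11.05, 11.02 and 10.95 in GFP negative samples and 10.74, 10.57 and 10.38 in GFP positive ones. The groups did not overlap, and the GFP positive samples were spread more widely (SD 0.179, against 0.049). The change was -0.44 ± 0.10 (SE), or 1.36-fold lower (limma adjusted p = 0.01). Without GFP negative 1 and GFP positive 3 together it was -0.33 and did not pass. Rpl7l1, related to Rpl7 and to a yeast factor of large subunit assembly, read 7.50, 7.78 and 7.66 against 7.18, 7.26 and 7.07, again without overlap. It changed by -0.47 ± 0.099 (SE), or 1.39-fold lower (limma adjusted p = 0.0062). A second Rpl7l1 probe set fell by 0.53, and the dimmest, at a mean of 4.61, changed by -0.14 and did not pass.

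Their standard partners did not pass. Rps27 read 4.73 to 4.79 in GFP negative and 4.67 to 4.84 in GFP positive samples, a change of 0.015 ± 0.081 (SE) on a probe set of low signal. Rpl22, which is needed for the development of alpha-beta T cells, read 11.92, 11.92 and 11.93 against 11.89, 11.88 and 11.74, a change of -0.087 ± 0.078 (SE). Rpl7 read 12.06 to 12.07 against 12.01 to 12.07, a change of -0.018 ± 0.072 (SE). The paralog changed more than its partner by -0.70 for Rps27l, -0.36 for Rpl22l1 and -0.46 for Rpl7l1, taken as differences of log2 values within each array. In each of these 3 pairs the differences of the groups did not overlap, but the exact two-sided permutation test gave p = 0.1, the smallest that 3 samples against 3 allow (0.167 after adjustment over the 5 pairs compared). In the pairs Rpl39l with Rpl39 and Rps4l with Rps4x the differences were -0.18 and -0.046, with exact permutation p of 0.5 and 0.7. Rpl39l, known from testis, varied from 3.50 to 4.34 in GFP positive samples and was called lower, by 0.43, only without GFP positive replicate 1 (limma adjusted p = 0.027). Rpl39, at 2.41 the dimmest member tested, changed by -0.016, and Rps4l and Rps4x by -0.036 and 0.0099.

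**Figure D3:**
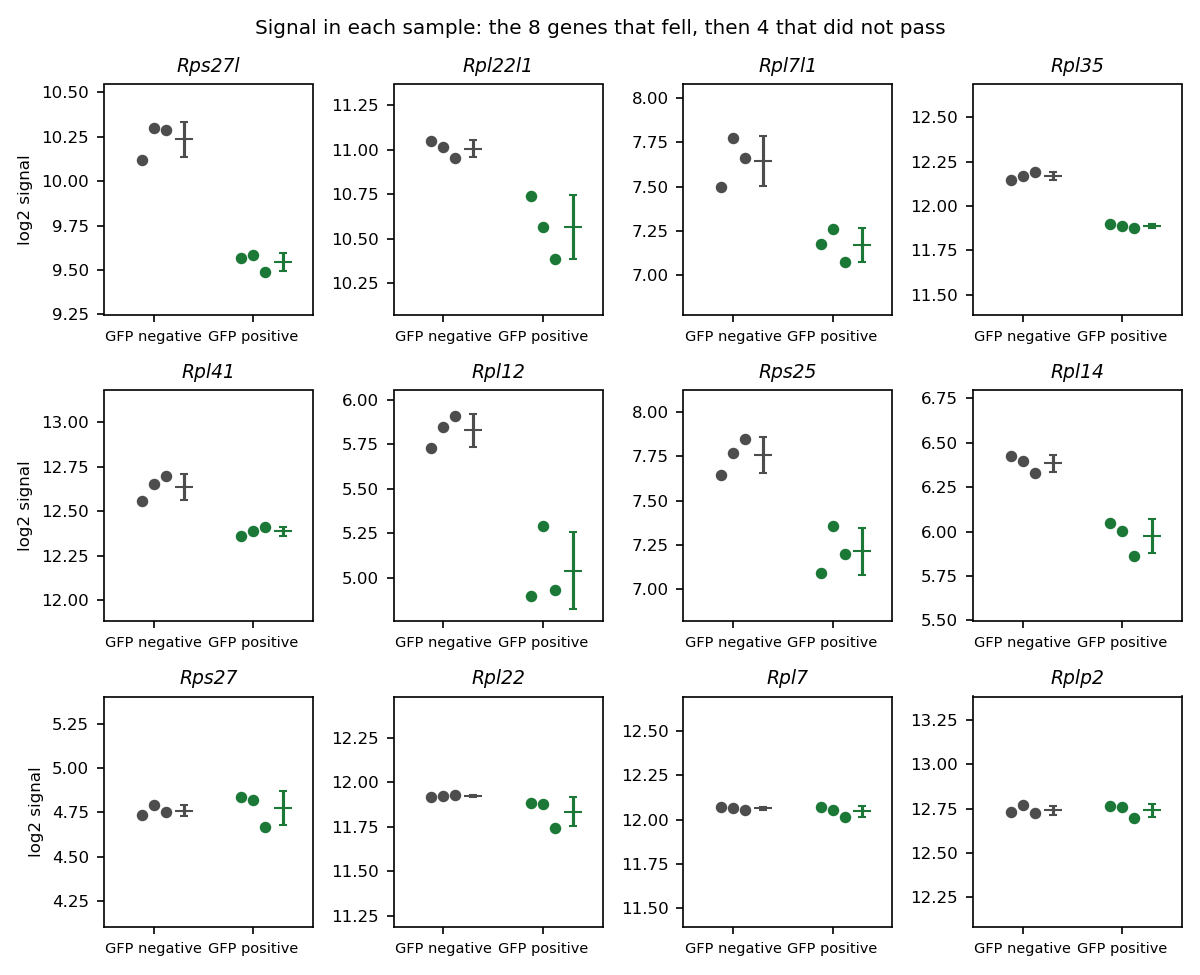
Log2 signal (y axis, each panel spanning 1.3 units) of each sample in the GFP negative (grey) and GFP positive (green) groups, n = 3 each, with the mean and SD beside the points. In the 8 genes of the first 2 rows all GFP positive points lie below all GFP negative points; in the last row, Rps27, Rpl7 and Rplp2 overlap, while Rpl22 is separated by a small gap.

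In the large subunit, 6 of 25 tested members fell and 0 rose (24.0% lower, against 17.5% of all genes tested), of which 2 are the paralogs Rpl22l1 and Rpl7l1. Rpl12, which sits at the base of the stalk that recruits elongation factors, had the largest change of any member. It read 5.73, 5.85 and 5.91 in GFP negative samples and 4.90, 5.29 and 4.93 in GFP positive ones, with no overlap and GFP positive replicate 2 the highest of its group. The change was -0.79 ± 0.12 (SE), or 1.73-fold lower (limma adjusted p = 0.0014). Rpl14 read 6.42, 6.40 and 6.33 against 6.05, 6.00 and 5.87, a change of -0.41 ± 0.083 (SE; limma adjusted p = 0.0053), and without GFP negative 1 and GFP positive 3 together one of -0.34 that did not pass. Rpl12 and Rpl14 each rest on 1 probe set, at means of 5.44 and 6.18, far below the median level of 12.03 over the tested members. No brighter probe set listing either gene alone was available to compare, and probe sets listing several symbols were not read.

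Rpl35, whose protein lies near the exit of the peptide tunnel, is 1 of the 2 bright members that fell. It read 12.15, 12.17 and 12.19 in GFP negative samples and 11.90, 11.89 and 11.88 in GFP positive ones. The gap between the groups was far wider than either group, and the change was -0.28 ± 0.071 (SE), or 1.22-fold lower (limma adjusted p = 0.015). Its other 4 bright probe sets fell by 0.32 to 0.37, and a dim one, at a mean of 1.37, changed by -0.45 without passing. Without GFP negative replicate 3 the call was lost, at -0.27 (limma adjusted p = 0.056), and it was also lost with median centring (-0.21) and with cyclic loess (-0.19). Rpl41, the smallest ribosomal protein, read 12.56, 12.65 and 12.70 against 12.36, 12.39 and 12.41, a change of -0.25 ± 0.077 (SE; limma adjusted p = 0.033). Its call was lost without GFP negative replicate 2 or 3 or without any 1 of the GFP positive samples, with changes of -0.26 to -0.22 (limma adjusted p = 0.059 to 0.12), and with median centring (-0.18) and cyclic loess (-0.14). A second bright Rpl41 probe set changed by -0.16 and did not pass, while 2 dimmer ones, under 5, fell by 0.55 and 0.76.

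The stalk genes Rplp0 and Rplp2, whose products bind elongation factors, did not pass. Rplp0 read 12.36, 12.33 and 12.34 in GFP negative and 12.29, 12.27 and 12.24 in GFP positive samples, a change of -0.078 ± 0.072 (SE) without overlap. Rplp2 read 12.73, 12.77 and 12.72 against 12.76, 12.76 and 12.69, which overlap. Rpl27 changed by -0.22 ± 0.086 (SE) on its brightest probe set (limma adjusted p = 0.072), and its other 2 probe sets fell, by 0.45 and 0.51. Rpl37, on 1 probe set, changed by -0.24 ± 0.14 (SE), with overlapping samples (limma adjusted p = 0.21). Rpl11, which with Rpl5 and the 5S RNA can bind MDM2, read 12.14, 12.12 and 12.13 against 12.03, 12.03 and 11.92. This change, -0.135 ± 0.075 (SE), did not pass, though the groups did not overlap.

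Members on the other side of 0 moved less. Rpl19 had the largest positive change, from 12.09, 12.13 and 12.17 to 12.29, 12.19 and 12.29, which is 0.125 ± 0.076 (SE; limma adjusted p = 0.22). Rpl13a, a target of interferon-gamma signalling in its role outside the ribosome, had positive changes on all 4 probe sets, from 0.077 to 0.196, of which 0 passed. Rpl4, Rpl6 and Rpl37a changed by 0.062, 0.058 and 0.045.

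In the small subunit, 2 of 22 tested members fell, Rps27l and Rps25, and 0 rose (9.09% lower, against 17.5% of all genes tested). Rps25, which some viral mRNAs need for internal initiation, read 7.65, 7.77 and 7.85 in GFP negative samples and 7.09, 7.36 and 7.20 in GFP positive ones. The groups did not overlap, and the change was -0.54 ± 0.098 (SE), or 1.45-fold lower (limma adjusted p = 0.0033). It rests on a single probe set at a mean of 7.49, below the median level of 12.03 over the tested members.

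The remaining small subunit genes did not pass. Rps6, the substrate of the S6 kinases, overlapped between groups, at 7.22 to 7.30 against 7.16 to 7.35. Rpsa, also known as a laminin receptor, read 12.49, 12.49 and 12.53 in GFP negative and 12.58, 12.59 and 12.62 in GFP positive samples, a change of 0.094 ± 0.072 (SE). Rps19 and Rps14, genes mutated or deleted in inherited or acquired anaemias, changed by -0.104 and -0.16, and Rps3, which also acts in DNA repair, by -0.091. Rps29, the brightest of the small subunit, changed by 0.057. Rps16 was listed on a probe set too dim to test, with samples from 0.52 to 1.02, so its level is not measured by it.

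Probe sets of a gene gave further detail. In a fit of all 23018 tested probe sets with 1 symbol, 22 of 99 tested probe sets of the members fell (22.2%, against 14.3% of all) and 0 rose (against 20.4%). The 22 hold repeated readings of the same genes, with 5 from Rpl35 and 3 each from Rps27l and Rpl41. They are therefore not independent, and the share cannot be read as one of genes. Of 52 further probe sets in the 21 genes with more than 1, 47 changed in the direction of the chosen one. Rps18, Rps20, Rps24 and Rpl27 had a further probe set that fell although the chosen one did not pass. In Rps20 the bright probe sets, at 12.02 and 12.22, changed by -0.0074 and -0.0003, whereas dim ones at 1.35 and 1.65 changed by -0.52 and -0.38, of which the first passed. In Rps24 a probe set at 2.00 fell by 0.57, beside -0.10 for the brightest, and in Rps18 one at 2.21 fell by 0.38, beside -0.095. Of 9 genes with probe sets both at 11 or more and under 5, 8 had a lower mean change on the dim ones, the exception being Rps10. Control probe sets that match no mouse transcript read 0.43 to 0.97, so the dimmest of these probe sets lie close to background.

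**Figure D4:**
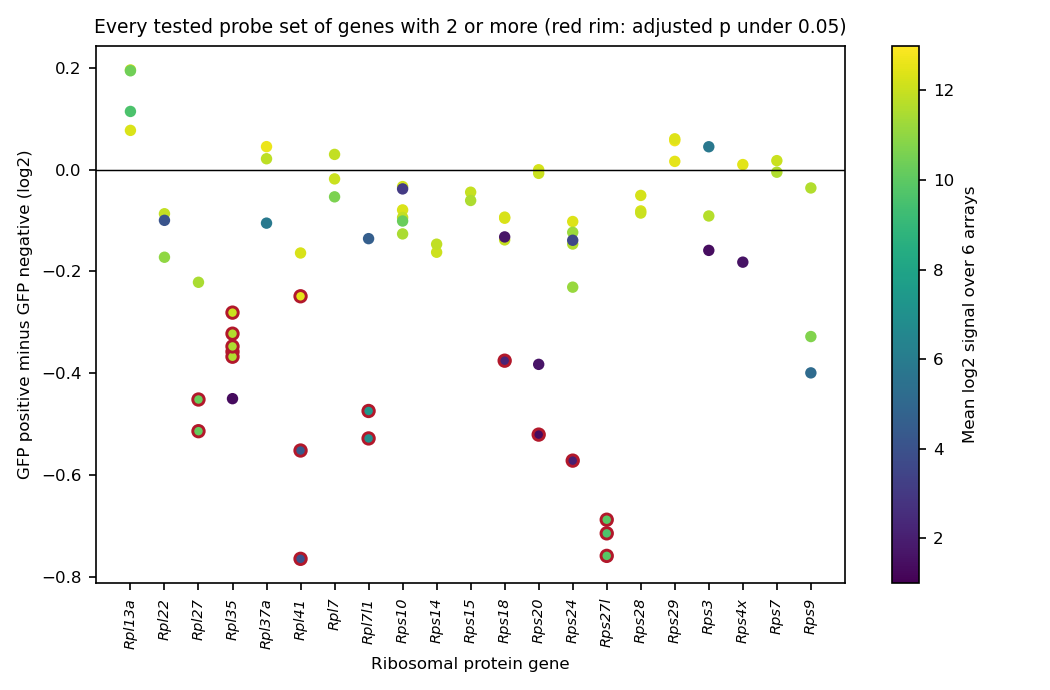
Change (y axis, GFP positive minus GFP negative, log2) of every tested probe set in the 21 members with 2 or more (x axis, gene), coloured by mean log2 signal, with a red rim where the limma adjusted p was under 0.05. The 3 Rps27l probe sets lie together between -0.76 and -0.69, whereas those of Rps20 and Rpl41 spread, with the dim ones below the bright ones.

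Genes that work with the ribosomal proteins were taken from lists chosen for this comparison. Of 19 chaperones of ribosomal proteins and ribosome assembly factors tested, 13 fell, 1 rose and 5 did not pass (68.4% fell, against the 17.5% of all genes), with a median change of -0.57. Under quantile normalization, median centring and cyclic loess 12 to 15 fell. Rrs1, which brings the 5S particle with Rpl5 and Rpl11 into the large subunit, read 8.70, 8.73 and 8.68 in GFP negative and 7.59, 7.46 and 7.19 in GFP positive samples, a change of -1.29 ± 0.11 (SE; limma adjusted p = 1.2e-04). Grwd1, a chaperone of Rpl3, changed by -1.07 and Gtpbp4, a GTPase of large subunit assembly, by -0.80. Nop53, a factor of late large subunit assembly, was the gene of this list that rose, by 0.41.

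Of 17 translation factors and other genes with TOP mRNAs, 4 fell, 0 rose and 13 did not pass (23.5% lower, against 17.5% of all genes), with a median change of -0.16. Those that fell were Eef1d, a subunit of the exchange factor of elongation (-0.42), the nucleolar chaperone gene Npm1 (-0.48), the importin gene Ipo5, whose product carries ribosomal proteins into the nucleus (-0.40), and Nap1l1 (-0.25). Under cyclic loess 4 of this list rose and 3 fell, with 32 added 6 rose and 7 fell, and with the replicate block 0 rose and 5 fell. Fau, whose product is cleaved to the small subunit protein eS30 and which the symbol rule leaves out, read 12.18, 12.21 and 12.20 against 12.43, 12.42 and 12.37. It rose by 0.21 ± 0.072 (SE; limma adjusted p = 0.048) and did not pass with the replicate number as a block.

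Of 15 genes on a list of regulators of ribosomal protein genes or mRNAs, 7 fell, 1 rose and 7 did not pass (46.7% lower, against 17.5% of all genes). The list is mixed and also holds Znhit6, Serbp1, Ccdc124 and Eef2k, so this share is not one of such regulators alone. Max, the partner of MYC, changed by -1.26, Znhit6, an assembly factor of small nucleolar particles, by -0.83, and Myc itself by -1.12. Rps6kb2, an S6 kinase gene, rose by 0.68. The mitochondrial ribosomal proteins, which build a separate ribosome, had 44 of 76 members lower and 1 higher, Mrps21, with a median change of -0.30 (57.9% lower, against 17.5% of all genes). Those of smallest unadjusted p were Mrps28, Mrps10 and Mrpl16, which changed by -0.90, -0.97 and -0.70. Under quantile normalization, median centring and cyclic loess 36 to 53 fell, and the 1 higher call was lost under the first and the last of these. Differences between these lists and the cytosolic ribosomal proteins were not tested.

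The labelled cell type was checked on its markers. All 10 markers of CD8 T cells on the array were above the dim level. In GFP positive cells 6 rose, among them Cd8a, Cd3e and Prf1, and Cd2 and Gzmb fell, with a summed log2 signal of 13.55 to 13.71 in GFP negative and 13.44 to 13.56 in GFP positive samples. The summed signal of other cell types was low, with 4.99 to 5.41 and 4.92 to 5.20 for 5 B cell genes, 4.70 to 4.86 and 4.84 to 4.91 for 9 myeloid genes, 4.07 to 4.13 and 3.82 to 3.98 for 5 dendritic cell genes, 3.61 to 3.72 and 3.51 to 3.57 for 3 genes of CD4 T cells, 2.69 to 2.83 and 2.47 to 2.62 for 3 erythroid genes and 2.19 to 2.43 and 2.23 to 2.43 for 3 NK cell genes. Of these lists, 3 dendritic and myeloid genes passed, Cd68 higher and Flt3 and Siglech lower. Under each other scaling and with the replicate block, 1 dendritic gene rather than 2 passed, and under quantile normalization and the block 1 myeloid gene was lower. The array's 18S ribosomal RNA control at its 5′ end read 11.02, 10.20 and 9.29 in GFP negative and 8.98, 9.06 and 9.78 in GFP positive samples, which overlap (exact permutation p = 0.2). The control at the 3′ end of Gapdh read 12.13 to 12.16 against 12.28 to 12.34. The part of these values in the results was not tested.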

How the data were processed

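Total RNA from each of 6 sorted samples, 3 a group, was hybridised to a mouse GeneChip, per the labels' protocols. The authors deposited log2 signals for 45101 probe sets, a unit inferred from their range, and these were used unchanged. Affymetrix Expression Console is the tool in the submitters' processing notes; the sources used here do not say how it summarised, background-corrected or normalized the arrays. The annotation names 1 gene for 34945 probe sets, several for 932 and none for 9160; 64 are controls. All 49 members matched RefSeq's gene table, and 43 its table of start sites (GRCm38.p6).

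Genes with a mean under the 40th percentile of all probe set means, controls aside, were left out. Groups were compared by limma 3.58.1 in R 4.3.3, two-sided, with group as the only term, Benjamini-Hochberg adjustment over 13194 genes and a threshold of 0.05, after testing on simulated data. Members and lists were chosen with earlier results of these data known. Named are stalk genes, paralog pairs, members with a known role of their own, the largest changes, the brightest and dimmest members and up to 3 genes past the threshold in each other list. Others given with values (Rpl4, Rpl6, Rpl19, Rpl27, Rpl37, Rps10, Rps18, Rps20, Rps24, Nap1l1, Nop53, Rps6kb2, Mrps21, Cd8a and Cd3e) were chosen after their values were seen. Samples of one replicate number deviated together over all genes (correlations 0.474, 0.348 and 0.251), so the numbers were taken as pairs in the alternative with a replicate block, though no label says so; over the members alone the correlations were 0.377, 0.418 and -0.421. The number of arrays limits the precision. Alternatives covered scaling, background, filters, the prior, probe set choice, the replicate block and left-out samples.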

Additional observations from a re-analysis of the deposited data

How the results depend on the processing

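The count of members that fell (8 of 47) was 15 with 32 added in linear units and 13 with a robust prior that follows intensity. It was 4 without GFP negative 1 and GFP positive 3 together (9.48% of all genes lower), where Rpl41 (-0.30), Rpl35 (-0.29), Rpl22l1 (-0.33) and Rpl14 (-0.34) lost their calls. Leaving out 1 sample gave 6 to 10 lower (12.1% to 18.4% of all genes), 0 higher (19.9% to 24%) and median changes of -0.077 to -0.052. The count that rose (0) became 3, 2 and 1 with 32 added (Rpsa, Rpl13a, Rpl19), with the robust prior that follows intensity (Rpsa, Rpl19) and with cyclic loess (Rpl19). With the replicate number as a block, 8 members fell, 0 rose and the median was -0.076, so that it changed no member's call. An alternative chosen after seeing the data, the replicate block with the robust prior that follows intensity, gave 13 lower and 2 higher. The median change was -0.0072 with median centring, 0.011 with cyclic loess and -0.155 without probe sets ending _x_at, _s_at or _a_at, which left 24 members. There 7 were lower, of which 5 were among the 8, with Rps18 and Rps20 newly called on other probe sets. The cause was not tested.

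None of the 8 members that fell changed sign under any alternative run. Among the members named by rule, the only ones followed singly here, sign changes occurred in some that did not pass, and these did not pass in those settings either. Other members with changes near 0 are not listed. With quantile normalization these were Rplp2 (0.0064), Rps27 (-0.154) and Rps6 (-0.040). With median centring they were Rpl39 (0.052), Rpl7 (0.050), Rplp2 (0.068) and Rps4l (0.033). With cyclic loess they were Rpl39 (0.047), Rpl7 (0.071), Rplp0 (0.021), Rplp2 (0.113), Rps27 (-0.093) and Rps6 (-0.037). With the mean of a gene's probe sets they were Rpl37a (-0.013), Rps4x (-0.086) and Rps6 (-0.090), and without the probe sets of the 3 endings Rps3 (0.045). Without GFP negative 1 and GFP positive 3 they were Rpl39 (0.022), Rpl39l (0.030), Rpl7 (0.0022), Rplp2 (0.017) and Rps6 (-0.016). Leaving out 1 sample in turn gave ranges that cross 0 for Rplp2 (-0.013 to 0.022), Rps4l (-0.225 to 0.135), Rps4x (-0.0084 to 0.030), Rps27 (-0.016 to 0.069), Rps6 (-0.0054 to 0.093) and Rpl39 (-0.062 to 0.034). Signals near the top of the arrays' range and near background limit what these probe sets can show.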
